A study of Rattus norvegicus with 6 samples.

Results

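DNA repair and damage signalling is described here through 32 genes of the rat hippocampus, picked by symbol out of the 30452 genes of the deposited matrix. All 32 symbols were found. The labels describe 3 rats given 20 Gy to the whole brain 2 months before dissection and 3 control rats, all listed as male, with no strain, age or further treatment stated. Hippocampi were digested to single cells, red cells were lysed, dead cells were taken out with magnetic beads, and the rest was sequenced as Chromium 3′ v3 libraries. The suffix of a cell barcode (1 to 6) gives its library, but no label or file links a suffix to a rat. Therefore 0 libraries were assigned to a group, irradiated and control rats could not be compared, and all values below describe cell classes and single libraries, with no test.

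A cell that meets a DNA break signals it through the kinase ATM, recruited by the complex of MRE11, RAD50 and NBN, and single-stranded DNA coated with the RPA proteins signals through the kinase ATR. CHEK1 and CHEK2 carry the signal to the cell cycle. Breaks are then joined end to end by the Ku and DNA-PKcs machinery in any phase of the cycle, or copied from the sister chromatid with BRCA1, BRCA2 and the Fanconi proteins after replication, while damaged bases and bulky adducts are removed by base and nucleotide excision repair. In the irradiated hippocampus this machinery is of interest because neural progenitors there divide and are sensitive to radiation, whereas neurons and most glia rest.

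The 44800 cells kept after filtering held a median of 4934 unique molecular identifiers (UMIs, counts of captured transcripts), with library medians between 4129 and 6401. The 6 libraries held 46853113 to 62094407 UMIs, and 410 barcode sequences occurred in more than 1 library. Levels are given in CPM, counts of a gene per 1000000 UMIs of the class, with an exact Poisson 95% interval, which covers counting error only. A member is called higher or lower in a class where its CPM, with 2 CPM added, stood 2-fold or more from the median of the 13 classes of at least 100 cells. The same rule over all 16869 genes with at least 20 UMIs gives the background share for each class. Classes were named by marker genes. Microglia-like cells numbered 20233, astrocyte-like cells 11852 and macrophages led by Clec7a and Plau 6900. The Clec7a Plau cells came nearly all from libraries 4, 5 and 6, with 1694, 2889 and 2312 cells, against 3, 1 and 1 in libraries 1, 2 and 3. A cluster of 481 cells came from library 3 alone. The astrocyte genes Gja1 and Aqp4 were seen in microglia-like cells at 2.73% and 3.02% of their astrocyte level, and the microglial genes C1qa and Cx3cr1 in astrocyte-like cells at 4.08% and 2.40% of their microglial level. The part of such foreign RNA in the values below was not tested.

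The repair genes summed to their highest levels in neuroblast-like and cycling cells. In cycling cells 13 of the 32 members were called higher and 0 lower, against 8.26% of all genes higher and 0.539% lower, or 9.20% higher among genes with at least 200 UMIs. The neuroblast-like cells, 135 cells with Dcx and Igfbpl1, had 19 members higher and 0 lower, where 24.9% of all genes were higher and 7.29% lower. Of these 19, 10 were 2-fold or more higher in the 41 neuroblast-like cells with 5 or more cycling UMIs than in the other 94, as were 7.40% of all genes. The 41 cells are part of the class in which the 19 were called, so the counts are not independent. Libraries 1 and 2 gave 53 and 54 of the 135 cells, against 4, 13, 5 and 6 in libraries 3 to 6. Oligodendrocyte precursor-like cells, 186 in number, had 10 higher and 0 lower, against 29.7% and 6.52% of all genes, so their count higher was near the background. The median log2 ratio of the members was 0.44 in cycling cells, 1.09 in neuroblast-like cells and 0.79 in precursor-like cells, beside medians over all genes of 0.04, 0.33 and 0.47. Microglia-like cells had 1 member higher (Atm) and 0 lower, against 4.20% and 0.978% of all genes. Astrocyte-like cells had 5 higher and 1 lower, against 21.6% and 8.90%. Without library 5 the astrocyte-like count higher was 8, and the count lower was 2 without library 1, 2 or 6 and 3 without library 3 or 4. The members summed to 1494.8 CPM in cycling cells, 1697 CPM in neuroblast-like cells, 942 CPM in astrocyte-like and 995 CPM in microglia-like cells.

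**Figure D1:**
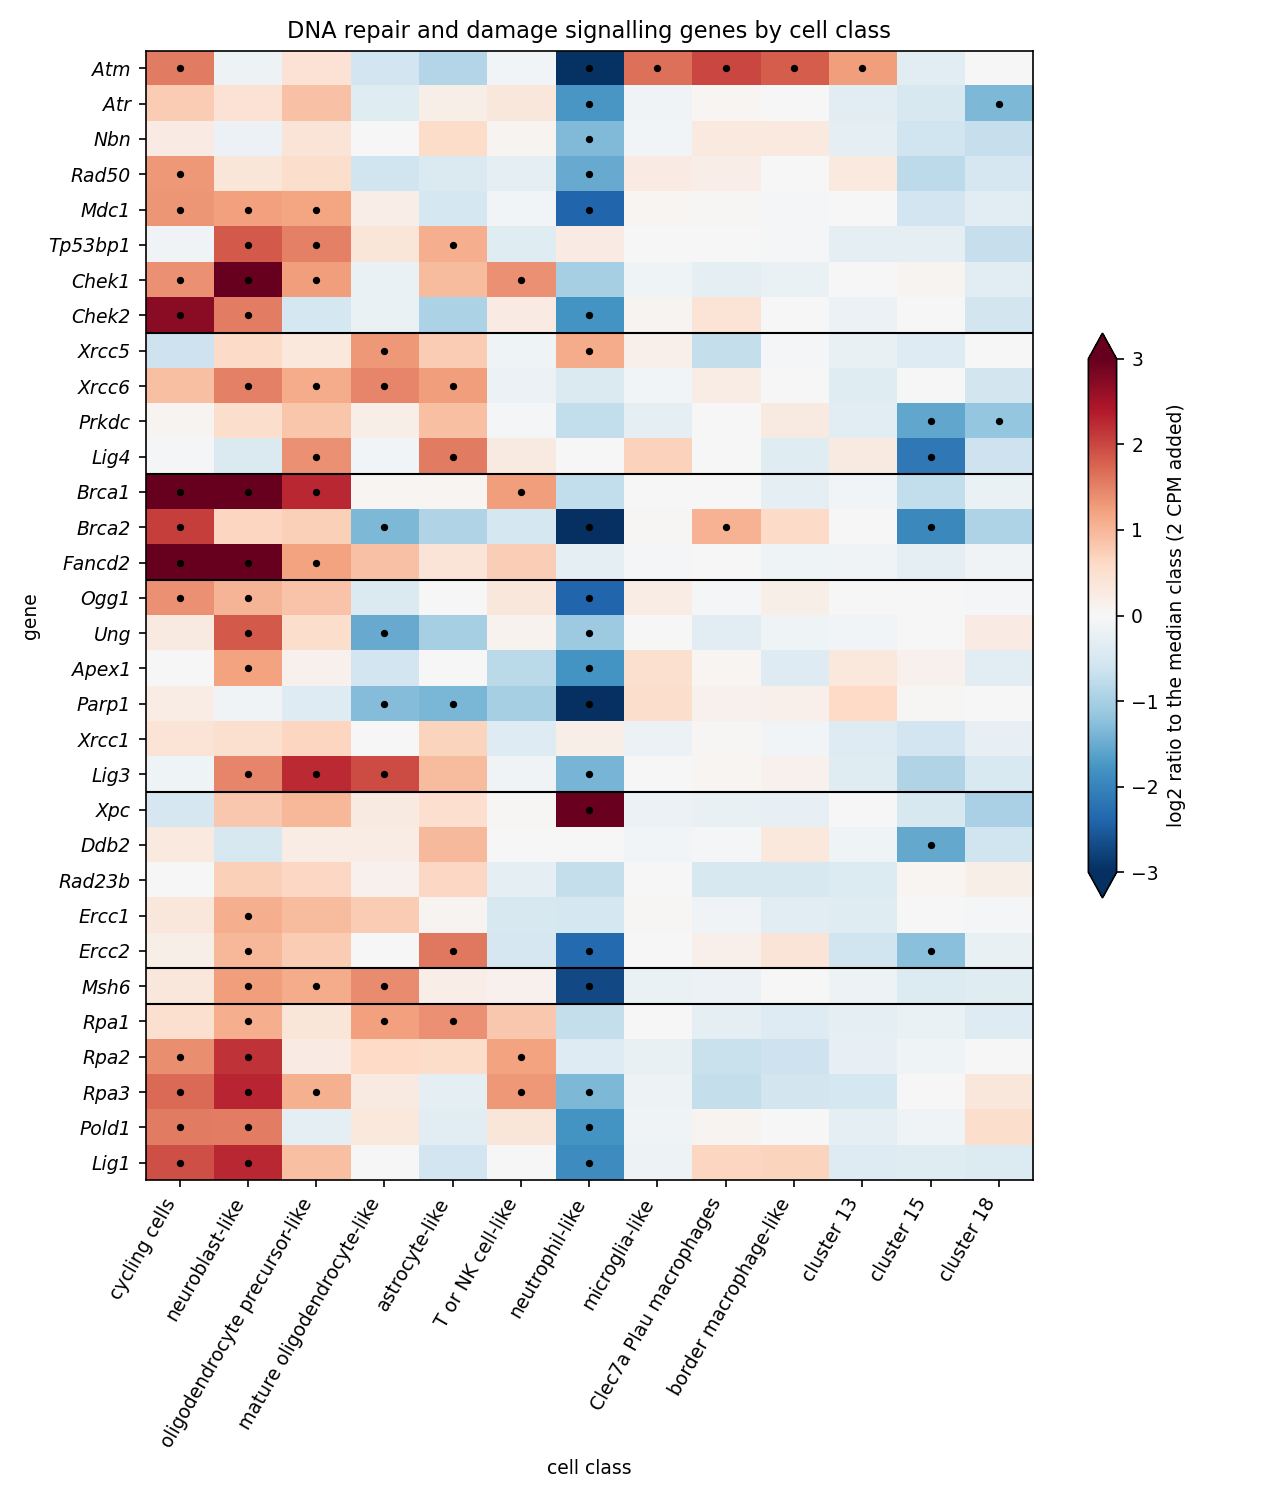
Level of each of the 32 members, ordered by role, in the 13 cell classes, drawn as a log2 ratio, with 2 CPM added, between the level in a class and the median over classes. Brca1 and Fancd2 have log2 ratios of 3.87 and 3.50 in cycling cells and are also called higher in neuroblast-like cells, at 28.6 and 22.4 CPM. Atm has 1.65 in microglia-like cells and is not called higher in clusters 15 and 18 or in neutrophil-like cells.

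The cycling cells were 290 cells of 2 clusters in which every cell had at least 5 UMIs of cycling markers such as Mki67 and Top2a. One cluster of 220 cells was myeloid, with C1qa at 3949 CPM and Lyz2 at 3726 CPM. The other, with 70 cells, carried the T and NK cell gene Nkg7 at 2889 CPM. Of all cells, 420 (0.938%) had 5 or more cycling UMIs, 21 of them exactly 5, and 58 cells had 4. Cycling cells had a median of 8892 UMIs, against 4721 in microglia-like cells. The member genes were left out of the genes used for clustering, but other cell-cycle genes were used.

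Promoters from RefSeq (assembly GRCr8) were found for 26 of the 32 members and are shown for 6 that were called higher in cycling cells. Each run is 300 bases on the gene's strand, 250 before the annotated start and 50 from it on. Capitals mark an 8-base E2F word, and E2F factors are known as activators of genes used at the start of DNA replication. The words searched on both strands were TTTGGCGC, TTTGCCGC, TTTCGCGC and TTTCCCGC, none of which contains another motif searched. The Brca1 promoter is shown for contrast, because it holds none of these words although Brca1 had the highest log2 ratio in cycling cells.
Atm promoter, chr8:62828580-62828879, minus strand: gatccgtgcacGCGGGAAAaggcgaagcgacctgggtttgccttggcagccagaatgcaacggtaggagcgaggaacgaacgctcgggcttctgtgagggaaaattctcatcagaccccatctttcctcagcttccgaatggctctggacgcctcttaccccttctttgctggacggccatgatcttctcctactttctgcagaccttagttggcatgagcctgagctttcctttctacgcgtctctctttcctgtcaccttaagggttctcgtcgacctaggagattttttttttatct
Chek1 promoter, chr8:44629794-44630093, minus strand: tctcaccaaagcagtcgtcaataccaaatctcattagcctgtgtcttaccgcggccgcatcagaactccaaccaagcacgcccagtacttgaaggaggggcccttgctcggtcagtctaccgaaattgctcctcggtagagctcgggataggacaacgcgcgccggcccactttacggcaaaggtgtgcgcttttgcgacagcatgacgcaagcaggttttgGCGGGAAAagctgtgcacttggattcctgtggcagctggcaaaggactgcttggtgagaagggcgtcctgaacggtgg
Fancd2 promoter, chr4:148234458-148234757, plus strand: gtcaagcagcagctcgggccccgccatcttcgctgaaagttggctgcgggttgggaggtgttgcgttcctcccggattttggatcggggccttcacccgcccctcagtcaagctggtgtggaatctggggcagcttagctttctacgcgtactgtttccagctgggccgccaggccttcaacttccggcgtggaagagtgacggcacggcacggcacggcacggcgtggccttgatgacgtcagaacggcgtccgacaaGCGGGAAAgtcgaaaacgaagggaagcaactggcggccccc
Lig1 promoter, chr1:83242920-83243219, plus strand: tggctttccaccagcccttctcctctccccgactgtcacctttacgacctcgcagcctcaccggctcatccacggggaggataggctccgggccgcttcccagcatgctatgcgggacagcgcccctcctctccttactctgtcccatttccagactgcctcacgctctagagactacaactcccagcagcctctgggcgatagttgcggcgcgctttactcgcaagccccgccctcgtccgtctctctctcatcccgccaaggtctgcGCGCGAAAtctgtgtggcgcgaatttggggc
Rpa2 promoter, chr5:150260522-150260821, plus strand: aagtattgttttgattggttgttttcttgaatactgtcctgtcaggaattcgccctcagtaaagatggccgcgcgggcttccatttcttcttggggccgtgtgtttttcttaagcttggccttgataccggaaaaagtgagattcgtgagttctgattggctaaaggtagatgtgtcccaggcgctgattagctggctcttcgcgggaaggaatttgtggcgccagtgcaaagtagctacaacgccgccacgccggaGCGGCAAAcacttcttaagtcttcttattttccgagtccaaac
Brca1 promoter, chr10:86977532-86977831, minus strand: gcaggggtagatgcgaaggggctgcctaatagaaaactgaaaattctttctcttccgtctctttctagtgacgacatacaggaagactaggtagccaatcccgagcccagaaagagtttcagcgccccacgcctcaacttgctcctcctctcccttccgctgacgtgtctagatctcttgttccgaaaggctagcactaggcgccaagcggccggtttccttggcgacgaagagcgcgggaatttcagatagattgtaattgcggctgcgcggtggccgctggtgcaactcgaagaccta

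The first base of the word lay at position 12 of the run in Atm, 223 in Chek1, 260 in Fancd2, 270 in Lig1 and 258 in Rpa2, counted from 1 at the 5′ end. An E2F word was found in 7 of the 26 member promoters (26.9%; Atm, Chek1, Fancd2, Lig1, Msh6, Rpa2 and Ung), against 651 of all 27457 promoters (2.37%). Among the members called higher in cycling cells 5 of 10 promoters held one, and among the other members 2 of 16. Atm was among these 5. Within the myeloid, T and NK, and neuroblast-like lineages described below, its log2 ratios of cycling over other cells were 0.155, -0.033 and 0.024. Ung, of the other members, had 0.66, -1.174 and 1.406. The word CCAAT stood in 12 of 26 member promoters (46.2%), against 39.6% of all promoters. The word TTTGAA stood in 3 of 26 (11.5%), against 19.4% of all, and the word GAGGAAGT in 0 of 26, against 2.62% of all. These matches describe letters in a window and show neither binding nor a cause.

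Homologous recombination and the Fanconi pathway copy intact sequence into a break or a crosslink after replication, and all 3 members of this role were called higher in cycling cells. Of the 3, Brca1 and Fancd2 were also called higher in neuroblast-like and in precursor-like cells, where 24.9% and 29.7% of all genes were. In neuroblast-like cells Brca1 stood at 28.6 CPM (20.6 to 38.9) and Fancd2 at 22.4 CPM (15.3 to 31.6). Brca1, which starts recombination and holds checkpoints, reached 46.6 CPM in cycling cells (95% interval 38.9 to 55.4, 129 UMIs), against 1.62 CPM (1.47 to 1.78) in all other cells. In libraries 2 to 6, those with at least 20 cycling cells, Brca1 stood at 52.8, 10.8, 50.5, 41.8 and 55.4 CPM in cycling cells, against 2.00, 0.695, 2.27, 1.64 and 1.30 CPM in the other cells of the same library. Every cycling value lay above every other value, and library 3 was the lowest on both sides. In library 3, 29 of the 31 cycling cells belonged to the T and NK cell cluster.

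Fancd2, the protein that is ubiquitinated at crosslinks, reached 26 CPM in cycling cells (20.4 to 32.8), against 0.865 CPM (0.754 to 0.988) in all other cells. By library it stood at 33.9, 17.9, 31.0, 32.3 and 17.3 CPM in cycling cells of libraries 2 to 6, against 1.27, 0.720, 0.888, 0.723 and 0.801 CPM in the others. The groups did not overlap. Fancd2 had the fewest UMIs of all members, 290 over all kept cells, of which 72 came from cycling cells. Brca2, which acts in recombination after a break is resected, reached 65.7 CPM (56.5 to 76.0) in cycling cells. It stood at 117, 32.3, 71.7, 58.5 and 58.8 CPM in cycling cells of libraries 2 to 6, against 13.3, 8.09, 15.3, 17.9 and 16.1 CPM in the others. Its cycling values were again all above the rest.

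**Figure D2:**
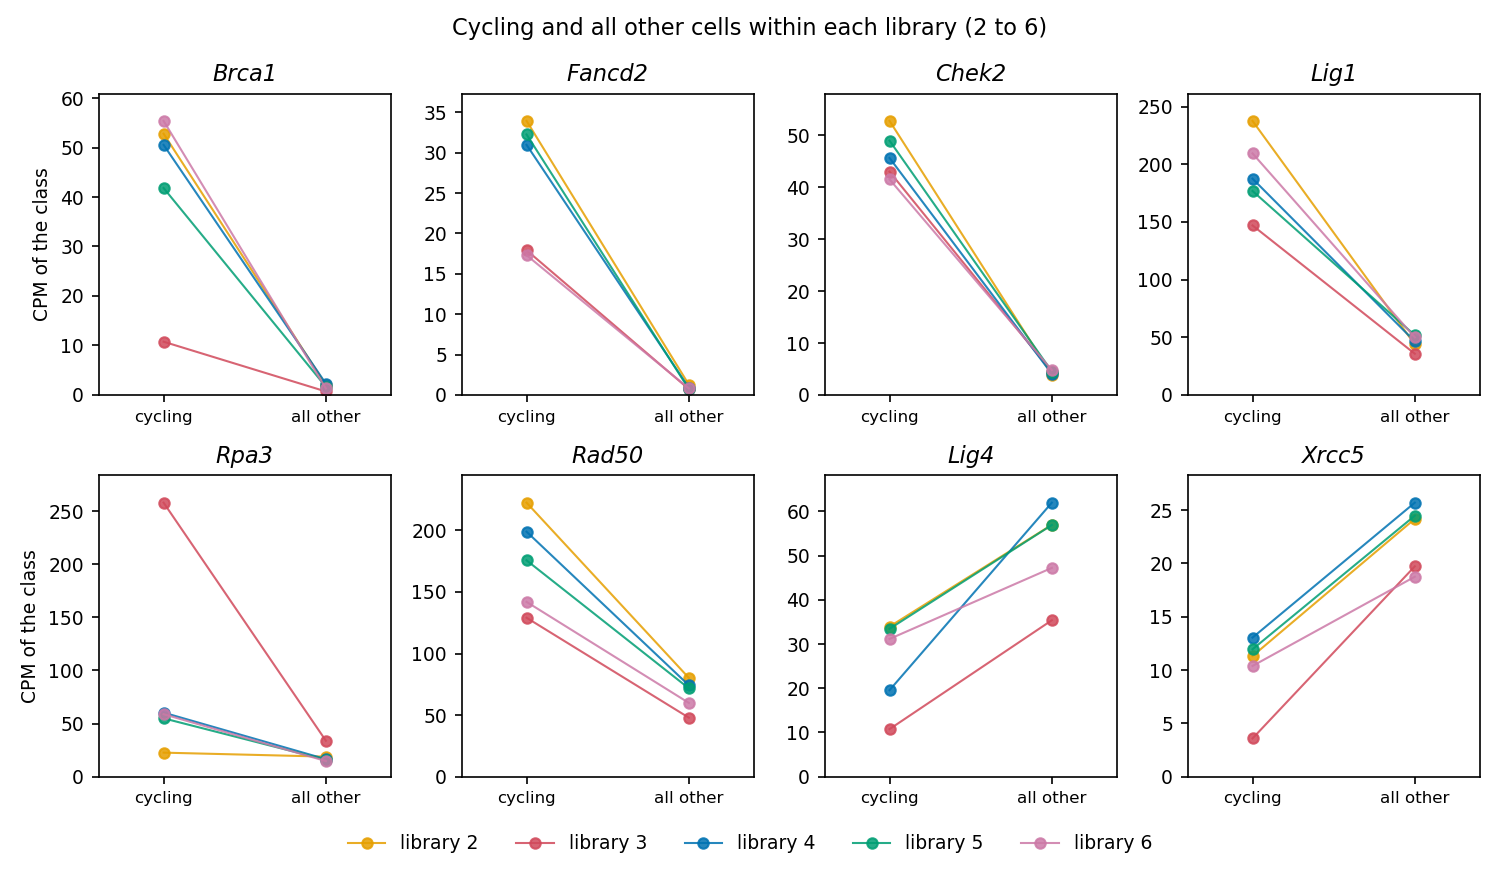
CPM of members in cycling cells and in all other cells of the same library, 1 point per library and side, coloured by library, for the 5 libraries with at least 20 cycling cells. Brca1, Fancd2 and Chek2 show no overlap between the sides, with Chek2 between 41.5 and 52.8 CPM in cycling cells and between 3.91 and 4.81 CPM in the others.

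Of the 5 members that serve replication as well as repair, 4 were called higher in cycling cells. All 5 were called higher in neuroblast-like cells, where 24.9% of all genes were. Lig1 stood at 234 CPM (210 to 260) in neuroblast-like cells, against 187 CPM (172 to 204) in cycling cells. Pold1 stood at 18.2 CPM (11.9 to 26.6) and 18.4 CPM (13.7 to 24.2). Lig1, the ligase that seals Okazaki fragments and repair patches, stood at 238, 147, 187, 177 and 209 CPM in cycling cells of libraries 2 to 6, against 43.7, 35.7, 46.3, 51.7 and 49.9 CPM in the others. Pold1, the catalytic subunit of polymerase delta, stood at 22.6, 10.8, 16.3, 19.1 and 20.8 CPM in cycling cells, against 4.38, 5.83, 4.59, 3.79 and 4.12 CPM. For Lig1 and Pold1 each cycling value was above all values of the other cells.

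The 3 subunits of RPA, the complex that coats single-stranded DNA, did not share 1 pattern over the classes. All 3 were called higher in neuroblast-like cells, with Rpa1 at 44.7 CPM, Rpa2 at 76.1 CPM and Rpa3 at 116 CPM. The other classes differed by subunit. Rpa2 reached 44.1 CPM (36.6 to 52.6) and Rpa3 76.6 CPM (66.6 to 87.6) in cycling cells, with log2 ratios of 1.4 and 1.7 to the median of classes. Rpa1, the large subunit, was not called there but was higher in astrocyte-like cells, with 54.3 CPM (52.7 to 56.0) against 19.9 CPM in microglia-like cells. It was also called higher in mature oligodendrocyte-like cells, at 49.8 CPM (43.6 to 56.6). By library Rpa1 stood at 55.4, 54.5, 58.4, 55.0, 50.5 and 56.7 CPM in astrocyte-like cells of libraries 1 to 6, against 23.0, 18.8, 17.1, 23.0, 19.6 and 19 CPM in microglia-like cells. The ranges did not overlap, and Rpa1 had the narrowest spread over libraries of all members in astrocyte-like cells, 1.16-fold from the lowest to the highest. In T or NK cell-like cells Rpa2 and Rpa3 were called higher, with 38.1 CPM (32.1 to 44.9) and 57.6 CPM (50.2 to 65.9), and each of the 3 subunits was above its microglial level in all 6 libraries, as were 15.3% of all genes.

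Rpa3 differed most in library 3. It stood at 28.6 CPM in microglia-like cells of library 3, against 14.2 to 17.4 CPM in the other 5 libraries. In astrocyte-like cells it stood at 44.9 CPM in library 3, and at 10.7 to 16.8 CPM elsewhere. In T or NK cell-like cells library 3 had 104 CPM, against 27.1, 23.8, 38.2, 38.8 and 40.1 CPM in libraries 1, 2, 4, 5 and 6. The cycling cells of library 3 reached 258 CPM, against 22.6 to 60.3 CPM in the other 4 libraries measured. Of the 31 cycling cells of library 3, 29 belonged to the T and NK cell cluster. With libraries pooled, that cluster had Rpa3 at 158 CPM, against 45.1 CPM in the myeloid cycling cluster. Library and cell makeup cannot be told apart for the cycling cells. Without library 3 the log2 ratio of Rpa3 in T or NK cell-like cells was 0.87, below the 2-fold limit.

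Among the 8 genes of damage signalling, 5 were called higher in cycling cells. Chek2, the kinase downstream of ATM, reached 43.3 CPM (35.9 to 51.8) in cycling cells. In cycling cells of libraries 2 to 6 it stood at 52.8, 43.0, 45.7, 49.0 and 41.5 CPM, against 3.91, 4.44, 4.05, 4.51 and 4.81 CPM in the others. The cycling values were above all others in a narrow band. Rad50, of the break-sensing complex, stood at 223, 129, 199, 176 and 142 CPM in cycling cells, against 80.2, 47.9, 74.2, 71.7 and 59.9 CPM in the others. Mdc1, a scaffold at marked chromatin beside breaks, had 18.9, 10.8, 19.6, 28.7 and 24.2 CPM in cycling cells, against 9.35, 4.12, 8.10, 8.31 and 5.83 CPM.

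Chek1, the kinase downstream of ATR, was read at low depth in cycling cells, with 23 UMIs and 8.31 CPM (5.27 to 12.5). Its highest level was in neuroblast-like cells, with 37.7 CPM (28.3 to 49.2). Of its 54 UMIs there 41 came from the 41 cells with 5 or more cycling UMIs, which stood at 64.8 CPM (46.5 to 87.9), against 16.3 CPM (8.67 to 27.8) in the other 94. Atr itself was called higher in no class and lay between 0 and 10.3 CPM, the highest value in precursor-like cells. Nbn, the partner of RAD50, was not higher in any class, with 48.4 CPM in cycling cells and 38.2 CPM in microglia-like cells. Tp53bp1, which favours end joining over recombination, was not called in cycling cells at 11.6 CPM. It was higher in neuroblast-like cells at 50.3 CPM (39.4 to 63.3), precursor-like cells at 39.2 CPM (28.3 to 53.0) and astrocyte-like cells at 28.9 CPM (27.7 to 30.1).

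In the comparison within libraries, 12 members were higher in cycling than in other cells in all 5 libraries, as were 12.5% of all genes. They were Rad50, Mdc1, Chek1, Chek2, Brca1, Brca2, Fancd2, Ogg1, Rpa2, Rpa3, Pold1 and Lig1. With libraries pooled, 11 members were 2-fold or more higher and 0 lower, against 6.49% and 12.6% of all genes. In all 5 libraries 6 members were lower in cycling cells, as were 33.3% of all genes: Tp53bp1, Xrcc5, Lig4, Lig3, Xpc and Ercc2. Lig4, the ligase of end joining, stood at 33.9, 10.8, 19.6, 33.5 and 31.2 CPM in cycling cells of libraries 2 to 6, against 57.0, 35.4, 62.0, 56.9 and 47.2 CPM in the others. All cycling values were below all others for Lig4. The cycling cells held no astrocyte-like cluster, so the sides differ in cell makeup.

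The members were next read within 3 lineages. Myeloid cycling cells were set against microglia-like and Clec7a Plau cells together, the cycling T and NK cells against T or NK cell-like cells, and 41 neuroblast-like cells with 5 or more cycling UMIs against the other 94. With libraries pooled, 7 members were 2-fold or more higher in the cycling cells of all 3 lineages: Mdc1, Chek2, Brca1, Brca2, Fancd2, Rpa3 and Lig1. Of 7286 genes with enough UMIs in each lineage 3.72% were. Lig4, Xpc and Apex1 were lower in all 3, as were 14.8% of those genes, and 0 members were 2-fold lower throughout. The log2 ratios of Apex1 were -0.15 (myeloid), -0.06 (T and NK) and -0.18 (neuroblast-like). In the 1 library measured for T and NK cells, Apex1 was higher in the cycling cells. Brca1 and Mdc1 each had a log2 ratio of 0.948 in that library, below the 2-fold limit, while Chek2, Brca2, Fancd2, Rpa3 and Lig1 stayed past it. The intervals of the sides overlapped in each lineage for Apex1 and Xpc, and for Lig4 in all but the myeloid one.

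Brca1 reached 55.2 CPM (45.3 to 66.5) in cycling myeloid cells, against 1.31 CPM (1.13 to 1.51) in the other myeloid cells. In the T and NK lineage it had 24.5 CPM (14.8 to 38.3) in cycling cells, against 5.90 CPM (3.69 to 8.93), a lineage in which 1 library alone held enough cells on both sides. In the neuroblast-like cluster it had 52.1 CPM (35.9 to 73.2) in cells with 5 or more cycling UMIs, against 10.0 CPM (4.33 to 19.7). The intervals of the sides did not overlap in any lineage, and the T and NK lineage showed the smallest difference in CPM. Lig1 reached 204, 145 and 425 CPM in the cycling myeloid, T and NK, and neuroblast-like cells, against 50.8, 48.0 and 82.6 CPM in their counterparts.

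In the myeloid lineage 13 members were 2-fold or more higher and 0 lower, where 5.60% and 2.04% of all genes were. In all 4 libraries measured 18 members were higher, as were 15.4% of all genes, and Apex1, Lig3 and Xpc were lower, as were 21.2%. In the T and NK lineage 10 were 2-fold or more higher, against 7.86% of all genes. Atr, Xrcc5 and Ung were lower, against 8.18%, but with 1, 3 and 3 UMIs in the cycling cells. The intervals of the sides overlapped for Atr and Ung and not for Xrcc5. In neuroblast-like cells 11 were higher and 0 lower, against 7.40% and 8.11%. For this lineage 0 libraries held at least 20 cells on both sides, so it rests on pooled libraries alone.

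**Figure D3:**
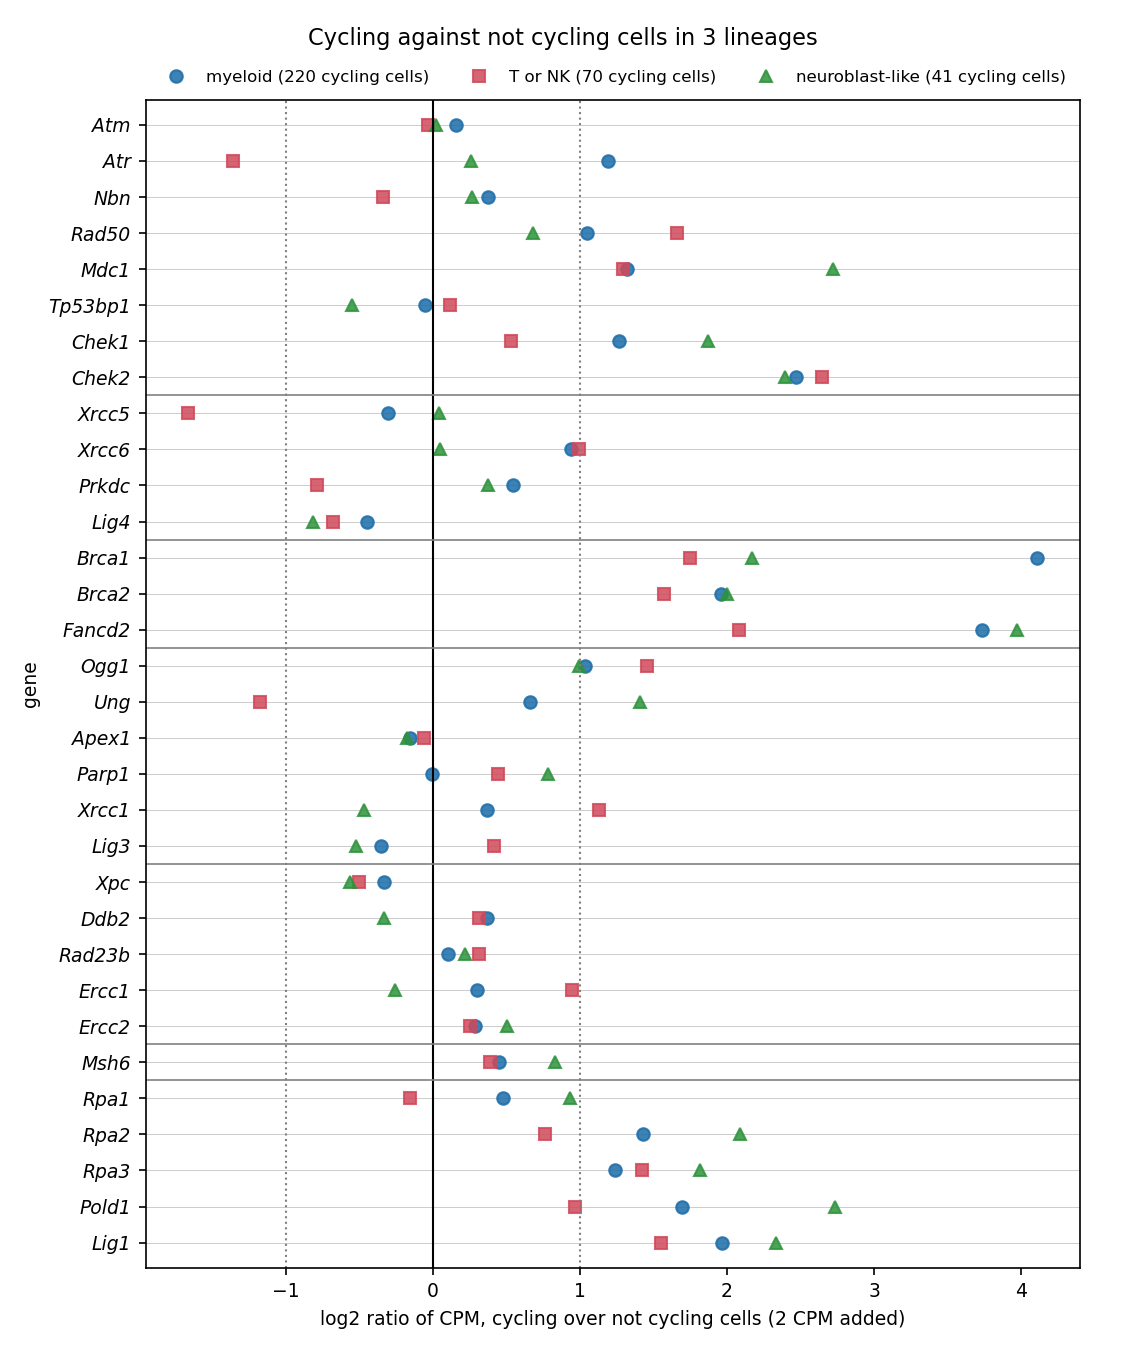
Log2 ratio of the CPM of cycling over not cycling cells for each member in 3 lineages, with 2 CPM added to both, ordered by role. The 7 members past 2-fold in all 3 lineages, with libraries pooled, include Brca1, Fancd2, Chek2 and Lig1. Lig4, Xpc and Apex1 lie below 0 in all 3, with Apex1 at -0.15 (myeloid), -0.06 (T and NK) and -0.18 (neuroblast-like).

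The wider repair machinery was read from a list of 99 further genes, of which 95 reached the UMI minimum, by the same rule. In cycling cells 42 were called higher and 0 lower, beside the background of 8.26% of all genes. Recombination and Fanconi genes made up 18 of these, out of 27. Among them were the ubiquitin enzyme Ube2t at 75.1 CPM (65.3 to 86.1) and the BRCA1 partner Bard1 at 29.6 CPM (23.6 to 36.8). Replication genes made up 13 of 17, led by the helicase subunit Mcm5 and the polymerase epsilon genes Pole2 and Pole, at 48.4, 16.3 and 23.1 CPM. Of the damage signalling genes 5 of 15 were called, led by the ATR mediator Clspn at 74.4 CPM, the histone H2ax at 358 CPM and Topbp1 at 81.3 CPM.

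End joining contributed 2 of 6, namely Polq, of the alternative pathway, at 23.5 CPM and the nuclease Dclre1c at 31.1 CPM, while Xrcc4 had a log2 ratio of 0.47. Base excision repair contributed 3 of 13, the glycosylase Neil3, the flap nuclease Fen1 and the glycosylase Mbd4, at 13.4, 68.6 and 31.8 CPM. Mismatch repair contributed 1 of 6, the nuclease Exo1 at 10.1 CPM. Nucleotide excision repair contributed 0 of 11, Ddb1 and Ercc8 included. Among the 32 members, 0 of 5 nucleotide excision genes, 0 of 4 end joining genes and 1 of 6 base excision genes were called higher in cycling cells. Beside the 8.26% of all genes called higher there, counts from so few genes are near the background.

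Atm was called higher in microglia-like cells, Clec7a Plau macrophages, border macrophage-like cells, cluster 13 and cycling cells. It stood at 22.5 CPM (21.5 to 23.6) in astrocyte-like cells, against 140 CPM (138 to 142) in microglia-like cells and 179 CPM (175 to 183) in Clec7a Plau macrophages. Border macrophage-like cells had 157 CPM (145 to 169) and cluster 13 had 107 CPM (99.6 to 115). Most of the 694 border macrophage-like cells, 581, formed a cluster led by the MHC class II genes RT1-Db1 and RT1-Ba, with Clec7a among its top genes. In that cluster 4 of 9 border macrophage markers passed, against 9 of 9 in the cluster of the other 113 cells. Clusters 15 and 18, which took no cell type name, stood lower for Atm, at 34.5 and 43.4 CPM. They had C1qa at 6426 and 4756 CPM, but Clec7a Plau macrophages also had C1qa at 3984 CPM. Their Cx3cr1 stood at 30.8% and 64.7% of the microglial level. In astrocyte-like cells of libraries 1 to 6 Atm had 22.3, 19.9, 11.2, 28.6, 22.0 and 19.2 CPM, against 132, 163, 83.7, 200, 215 and 128 CPM in microglia-like cells. No library overlapped, and library 3 was the lowest in both classes. After cells were thinned to 2000 UMIs, 4.41% of 9450 astrocyte-like cells (exact binomial 95% interval 4.01 to 4.85%) and 24.4% of 19093 microglia-like cells (23.8 to 25%) had an Atm UMI. Without thinning the shares were 12.8% and 46.7%. Against the median of classes Atm in astrocyte-like cells had a log2 ratio of -0.89, and it was called lower, at -1.23 to -1.07, without library 1, 2, 3 or 4. In microglia-like cells the ratio was 1.65, but 0.96 with doublets kept and 0.88 with all other cells in place of the median. The astrocyte level of Atm was 0.161 times the microglial one, and the astrocyte level of C1qa was 4.08% of its own microglial level. The part of foreign RNA in the astrocyte value of Atm was not tested.

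Atm was also called higher in cycling cells, at 132 CPM (119 to 146). Cycling myeloid cells had 168 CPM, against 150 CPM in the other myeloid cells, a log2 difference of 0.15, and the cycling value was higher in 1 of 4 libraries. Cycling T and NK cells had 40.0 CPM, against 41.0 CPM in T or NK cell-like cells. Clec7a Plau cells were above microglia-like cells for Atm when libraries were pooled but not within all libraries. They had 238, 223 and 114 CPM in libraries 4, 5 and 6, against 200, 215 and 128 CPM in microglia-like cells of the same libraries.

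Parp1, the poly(ADP-ribose) polymerase that marks single-strand breaks, divided the classes in the same direction. In astrocyte-like cells of libraries 1 to 6 Parp1 had 48.2, 48.6, 31.8, 49.4, 50.3 and 51.8 CPM, against 213, 197, 129, 210, 211 and 214 CPM in microglia-like cells. The 2 classes were far apart in every library. Parp1 was called lower in astrocyte-like cells at 48.5 CPM (47.0 to 50.1) and in mature oligodendrocyte-like cells at 50.6 CPM (44.4 to 57.5), and stood at 149 CPM in cycling cells. In cycling myeloid cells and in the other myeloid cells it stood at 174 CPM.

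In all, 7 members were 2-fold or more higher in astrocyte-like than in microglia-like cells and 3 lower, against 23.4% and 12.9% of all genes, so the count of members higher was near the background. The 3 lower were Atm, Parp1 and Chek2. The 7 higher were Tp53bp1, Chek1, Xrcc6, Prkdc, Ddb2, Ercc2 and Rpa1. In all 6 libraries 17 members were higher, as were 44.1% of all genes, and 8 were lower, as were 25.8%. The 8 were Atm, Rad50, Mdc1, Chek2, Brca2, Ung, Parp1 and Lig1.

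**Figure D4:**
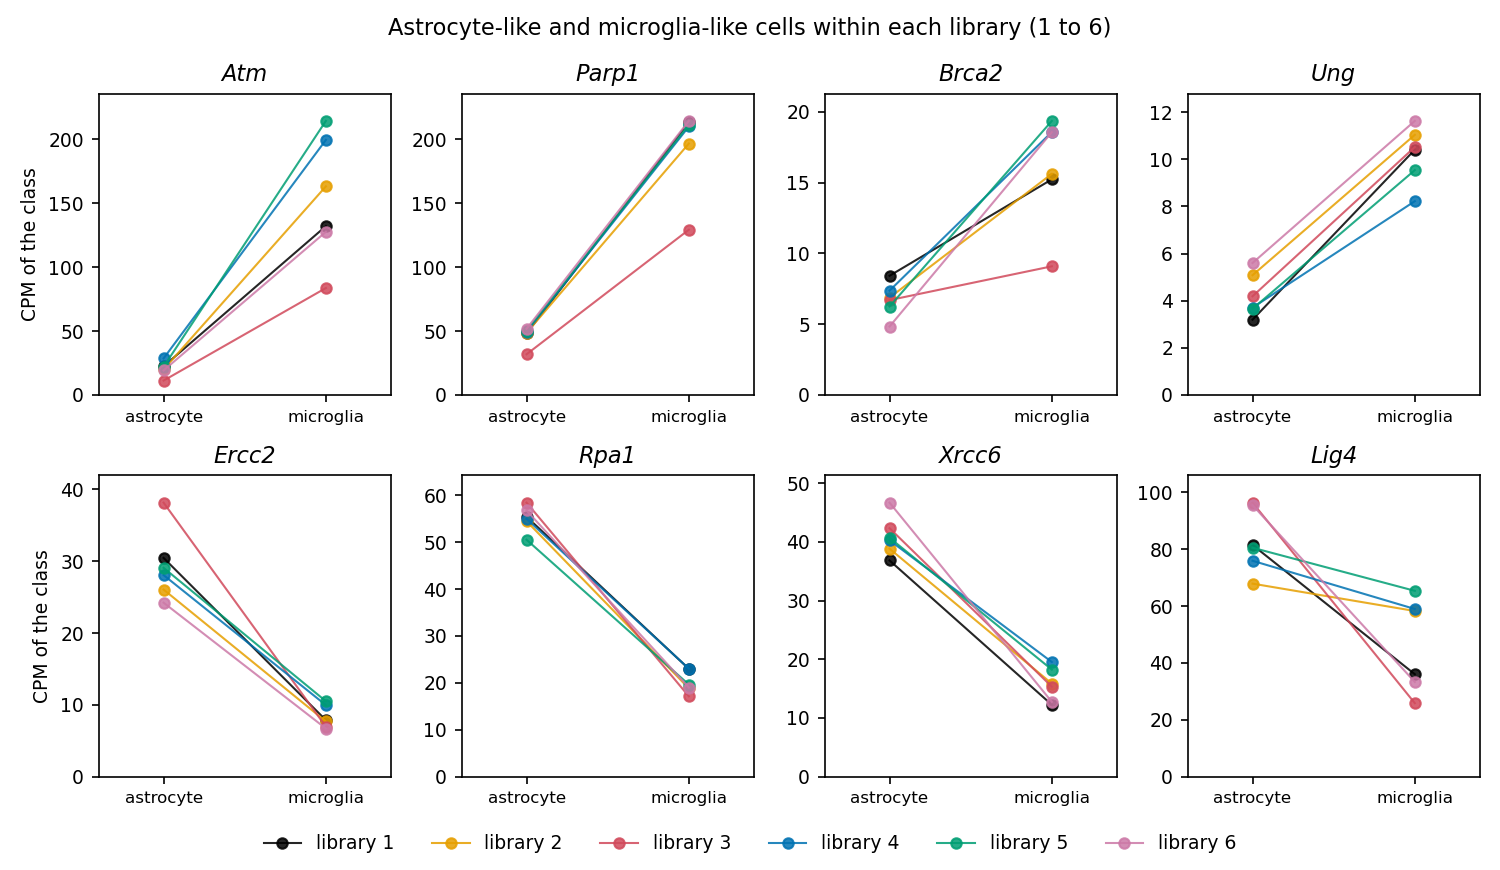
CPM of members in astrocyte-like and microglia-like cells, 1 point per library and class, coloured by library. Atm lies between 11.2 and 28.6 CPM in astrocyte-like cells and between 83.7 and 215 CPM in microglia-like cells, while Rpa1 and Xrcc6 are higher in astrocyte-like cells in all 6 libraries.

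Of the 4 end joining members 2 were called higher in astrocyte-like cells (Xrcc6 and Lig4) and 2 in mature oligodendrocyte-like cells (Xrcc5 and Xrcc6), where 21.6% and 13.4% of all genes were. Of the 6 other end joining genes 1 and 0 were called higher in these classes. Lig4 and Prkdc had log2 ratios of -0.08 and 0.18 in mature oligodendrocyte-like cells, below their astrocyte-like level in all 6 libraries. Xrcc6, the Ku70 subunit that binds broken ends, stood at 36.8, 38.8, 42.3, 40.3, 40.7 and 46.7 CPM in astrocyte-like cells of libraries 1 to 6, against 12.2, 15.9, 15.3, 19.5, 18.2 and 12.7 CPM in microglia-like cells. The ranges were separate. Xrcc6 was also called higher in mature oligodendrocyte-like cells at 47.7 CPM (41.6 to 54.3), neuroblast-like cells at 49.6 CPM (38.7 to 62.6) and precursor-like cells at 37.3 CPM (26.7 to 50.9). Its partner Xrcc5, Ku80, was called higher in mature oligodendrocyte-like cells at 48.1 CPM (42.0 to 54.8) and stood at 11.2 CPM in cycling cells. In neutrophil-like cells Xrcc5 was called on 11 UMIs, at 41.7 CPM (20.8 to 74.5).

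Lig4 was called higher in astrocyte-like cells at 81.1 CPM (79.2 to 83.2) and in precursor-like cells at 71.0 CPM (55.9 to 88.8). It stood at 81.5, 67.9, 96.4, 76.0, 80.5 and 95.5 CPM in astrocyte-like cells of libraries 1 to 6, against 36.0, 58.3, 25.8, 59.0, 65.4 and 33.3 CPM in microglia-like cells. No values overlapped, though the log2 difference ran from 0.21 in 1 library to 1.82 in another. Prkdc, the DNA-PK catalytic subunit, was 2-fold or more higher in astrocyte-like cells, at 42.9, 39.5, 24.8, 43.4, 40.6 and 37.6 CPM in libraries 1 to 6, against 15.2, 18.7, 7.83, 27.0, 27.6 and 13.6 CPM in microglia-like cells. Within each library the astrocyte value was the higher, but over libraries the ranges overlapped. In the cluster of library 3 alone Prkdc was lower at 7.89 CPM (5.16 to 11.6) and Atr at 0.607 CPM (0.074 to 2.19). Lig4 and Prkdc were also lower in cluster 15, whose 819 cells had a median of 2000 UMIs, as were Brca2, Ercc2 and Ddb2 with 0 to 4 UMIs each. The count of Ddb2 was 0 there, with an exact interval up to 2.05 CPM.

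Of the base excision members, the glycosylase Ogg1, which removes oxidised guanine, was called higher in cycling cells. It stood at 26.4, 35.8, 26.1, 23.9 and 15.6 CPM in cycling cells of libraries 2 to 6, against 9.33, 10.3, 7.86, 8.97 and 8.01 CPM in the others. Ung, which removes uracil, was called higher in neuroblast-like cells at 42.6 CPM (32.6 to 54.7) and lower in mature oligodendrocyte-like cells at 2.33 CPM (1.16 to 4.17). In astrocyte-like cells Ung had 3.19, 5.08, 4.18, 3.70, 3.65 and 5.60 CPM, against 10.4, 11.0, 10.5, 8.22, 9.54 and 11.6 CPM in microglia-like cells of libraries 1 to 6. Apex1, which cuts at sites that have lost a base, was higher in neuroblast-like cells at 198 CPM (176 to 223) and stood at 119 CPM in microglia-like cells. Xrcc1, the scaffold of single-strand break repair, was called in no class. Lig3, its ligase, was higher in mature oligodendrocyte-like cells at 57.2 CPM (50.6 to 64.5), precursor-like cells at 70.0 CPM (55.1 to 87.8) and neuroblast-like cells at 39.8 CPM (30.2 to 51.6), against 13.2 CPM in microglia-like cells.

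Among the nucleotide excision members, Ercc2, a helicase of TFIIH, was higher in astrocyte-like cells, with 30.5, 26.1, 38.2, 28.1, 29.1 and 24.2 CPM in libraries 1 to 6, against 7.87, 7.69, 6.96, 9.96, 10.5 and 6.71 CPM in microglia-like cells. The 2 sets of values were separate. Xpc, the sensor of distorted DNA, was called higher in neutrophil-like cells at 189 CPM (141 to 250, 50 UMIs), against 19.7 CPM in microglia-like cells. Ercc1, the nuclease subunit, was called only in neuroblast-like cells, at 51.0 CPM (40.0 to 64.1). Rad23b, the partner of XPC, was called in no class and lay between 37.9 and 105 CPM. Ddb2, which binds ultraviolet lesions and is a known p53 target, had 9.20 CPM in astrocyte-like cells, against 3.43 CPM in microglia-like cells. Msh6, of the mismatch sensor, was higher in mature oligodendrocyte-like cells at 33.1 CPM (28.1 to 38.7), neuroblast-like cells at 29.3 CPM (21.1 to 39.7) and precursor-like cells at 26.1 CPM (17.4 to 37.8).

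Mature oligodendrocyte-like cells had 5 members higher and 3 lower, against 13.4% and 10.7% of all genes. Against astrocyte-like cells, Lig3 and Msh6 were 2-fold or more higher in mature oligodendrocyte-like cells and Lig4, Ercc2 and Chek1 lower, where 10.6% and 21.2% of all genes were. Lig3 had 43.5, 61.9, 35.7, 73.5, 64.5 and 55.4 CPM in mature oligodendrocyte-like cells of libraries 1 to 6, against 21.8, 27.7, 20.8, 29.4, 27.2 and 28.2 CPM in astrocyte-like cells. The ranges of Lig3 did not overlap. In all 6 libraries 7 members were higher and 8 lower in mature oligodendrocyte-like cells, as were 16.5% and 36.1% of all genes. T or NK cell-like cells had 4 members higher (Chek1, Brca1, Rpa2 and Rpa3) and 0 lower, against 8.45% and 6.91%. The same 4 were 2-fold or more above microglia-like cells and Atm, Apex1 and Parp1 below, where 11.4% and 13% of all genes were. In all 6 libraries these 3 and Rad23b were lower in T or NK cell-like cells, as were 24.5% of all genes. Neutrophil-like cells had 2 higher and 17 lower, against 11.1% and 23.3%. Their 199 cells held 264047 UMIs, so that 3 UMIs equal 11.4 CPM and low levels were not readable there.

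Border macrophage-like cells and cluster 13 had 1 member higher each (Atm) and 0 lower, against 5.07% and 3.69% of all genes higher. Cluster 15 had 0 higher and 5 lower, against 1.46% and 11.1%, and cluster 18, the cluster of library 3 alone, had 0 higher and 2 lower, against 3.69% and 7.07%. Clec7a Plau macrophages had 2 higher (Atm and Brca2) and 0 lower, against 4.46% and 1.21%. Set directly against microglia-like cells, Brca2 was 2-fold or more higher in Clec7a Plau cells with libraries pooled and 0 members were lower, against 5.41% and 5.54% of all genes. Brca2 stood at 34.2, 35.9 and 25.4 CPM in Clec7a Plau cells of libraries 4, 5 and 6, against 18.6, 19.4 and 18.6 CPM in microglia-like cells. Lig1 stood at 79.2, 81.1 and 67.4 CPM in Clec7a Plau cells, against 44.4, 40.1 and 44.3 CPM. Both genes were higher in Clec7a Plau cells in each of these libraries, by log2 differences of 0.42 to 0.83 for Brca2 and 0.59 to 0.98 for Lig1. Against the median of classes Brca2 in Clec7a Plau cells had a log2 ratio of 1.05, and 0.94 without library 3 or library 5, below the limit. In the other direction Parp1 had 130, 145 and 141 CPM, against 210, 211 and 214 CPM in microglia-like cells. In all 3 libraries 6 members were higher and 15 lower, as were 26.9% and 32.1% of all genes.

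Read per cell at the common depth of 2000 UMIs, the members were sparse. A cycling cell had UMIs of 2.59 members on average and a neuroblast-like cell of 2.54, against 1.80 in microglia-like cells and 1.76 in astrocyte-like cells. No member was seen in 8.54% of cycling cells and 15.1% of microglia-like cells. A Brca1 UMI was found in 34 of 281 cycling cells, 12.1% (8.53 to 16.5%), against 0.299% of microglia-like cells and 0.370% of astrocyte-like cells. Without thinning the share of cycling cells was 26.6%. Lig1 was found in 28.5% of cycling cells.

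In microglia-like cells 18 of the 32 members had their lowest level in library 3 and 7 their highest, against 39.7% and 16.4% of all genes. With doublets kept 6 members were lowest there. That setting also changed the microglia-like class, to 18082 cells in 6 clusters from 20233 in 8. The cause of the move was not tested. In astrocyte-like cells 15 were lowest and 10 highest in library 3, against 31.0% and 34.3%, and the share highest was thus near the background. The widest range among microglia-like cells for a member with at least 1 UMI in every library was that of Brca1, from 0.574 to 2.61 CPM, and the narrowest that of Xrcc1, from 22.9 to 29.3 CPM. Prkdc ranged from 7.83 to 27.6 CPM and Atm from 83.7 to 215 CPM. Since the libraries have no known group, these ranges may hold differences between rats, treatment and processing, which cannot be told apart. Gene spans of 11 members overlap another protein-coding gene in RefSeq, among them Brca2, Fancd2, Lig1, Lig3, Tp53bp1, Ercc1, Ercc2, Ddb2, Msh6, Ogg1 and Rad23b, and how shared reads were counted is not given in the sources used here.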

How the data were processed

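The authors deposited 1 matrix of raw UMI counts (highest value 6655) with 58078 barcodes from 6 libraries and 30452 genes, made with Cell Ranger 7.0.0, per the file headers. The submitters' processing notes name the mouse build mm10, while the gene identifiers are rat Ensembl identifiers, and whether intronic reads were counted is not given in the sources used here. The counts are not normalized.

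Barcodes with at least 500 UMIs, 200 genes and at most 20% mitochondrial UMIs were kept (48704), and 3904 doublets (8.02%) were removed within libraries against simulated doublets, which left 44800 cells. A total of 9227 barcodes exceeded the mitochondrial limit. Cells were clustered with Leiden at resolution 1.0 on 15 neighbours and 30 components of 2000 variable genes, with the members and the wider repair list left out, which gave 36 clusters. A cluster took the name of a cell type, written "X-like", from at least 3 passing markers, and of cycling cells from at least 10 cycling markers and at least 50% of cells with 5 or more cycling UMIs. The 50% share was set after the data were seen.

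UMIs were summed per class and scaled to CPM. Ratios had 2 CPM added, members and genes needed 20 UMIs, and a call needed a log2 ratio of 1 or more, or -1 or less. Shares were taken at 2000 UMIs. With 0 libraries tied to a labelled sample the conditions could not be compared. Libraries were not treated as replicates: classes were compared within each library and the range over libraries is given, with no test. Intervals (exact Poisson or binomial, 95%) cover counting error only. The scripts were tested on simulated data. Members named with values were those past 2-fold in a class and the 6 of highest and 6 of lowest level. From the wider list the 3 per role of highest ratio in cycling cells were to be named, and some of these are not reported here. The members, lists and rules were chosen with earlier results of these data known. Alternatives to the settings are given in the closing section. The work used python-igraph 0.11.9, leidenalg 0.10.2, matplotlib 3.10.9, pandas 2.3.3, SciPy 1.17.1, NumPy 2.4.6 and Python 3.11.15.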

Additional observations from a re-analysis of the deposited data

How the results depend on the processing

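No paired analysis was possible because the libraries carry no replicate number of the labels and could be tied to no sample. The 13 members higher in cycling cells were 9 to 15 under the alternatives run, the 12 higher in every library measured were 12 to 18, and no direction of a called value turned. The counts of other classes moved more. In astrocyte-like cells the 5 members higher were 3 with 10 CPM added or at Leiden resolution 0.5 and 8 with 0.5 CPM added. The 1 lower was 4 with 0.5 CPM added, with all other cells as the base or without mitochondrial and ribosomal protein genes. It was 3 at a mitochondrial limit of 10% and 2 with the members among the variable genes. In Clec7a Plau macrophages the 2 higher were 1 with 10 CPM added, with all other cells as the base, with doublets kept and with the members among the variable genes, and with all other cells as the base 1 was lower. Their median of 0.00 was -0.25 with all other cells as the base, 0.076 without mitochondrial and ribosomal protein genes and -0.067 with doublets kept. In microglia-like cells the 1 higher was 0 with doublets kept, and 1 was lower with all other cells as the base. Their median of -0.01 was -0.31 with that base and -0.10 at Leiden resolution 0.5. Leaving out 1 library in turn gave 1 to 2 higher in Clec7a Plau macrophages, with medians of -0.072 to 0.072, and 4 to 8 higher and 1 to 3 lower in astrocyte-like cells. With settings chosen after seeing the data, leaving out clusters of 1 library gave 1 higher in Clec7a Plau macrophages and 3 lower in astrocyte-like cells, and counting the neuroblast-like cluster as cycling gave 2 lower in astrocyte-like cells. With doublets kept 6 members were lowest in library 3 in microglia-like cells, against 18. The share of cycling cells with Brca1 was 26.6% unthinned. The share with Atm was 8.59% of astrocyte-like and 36.9% of microglia-like cells at 4000 UMIs, and 12.8% and 46.7% unthinned. The causes of these moves were not tested. Depth limits Chek1, Fancd2, Atr and Brca1 outside cycling cells, and all low levels in neutrophil-like cells.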
